A study of Mus musculus with 39 samples.

Results

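The chronic response to phenobarbital was followed in whole liver of male mice after 91 days, by comparing the 5 arrays labelled treated with the 5 arrays labelled control at that time, 10 of the 39 arrays of the study. All mice were B6C3F1/Crl, a cross of C57BL/6 and C3H/He. Treated mice drank water with phenobarbital at 0.05% (w/v), and the labels give controls with no named vehicle. From the arrival age and acclimatisation in the labels the mice were 125 to 128 days old at day 91. The other arrays are 5 phenobarbital and 5 control arrays at each of days 7 and 28, and 5 phenobarbital and 4 control arrays at day 1, all from liver of the same cross. The general treatment label names 28 days of dosing for every sample, while each sample also carries its own duration; the latter gave the times used here, so the exposure of the day 91 arrays rests on that label. The labels do not say that each array is a separate mouse, so p-values measure the spread between arrays, which may be partly technical.

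Phenobarbital is an anticonvulsant that induces the liver enzymes that clear it. It keeps the epidermal growth factor receptor from signalling, which lets the constitutive androstane receptor (CAR, encoded by Nr1i3) leave the cytoplasm, pair with the retinoid X receptor and switch on genes of drug oxidation, conjugation and export. Cyp2b10 is the classical CAR target of mouse liver. Given for months, phenobarbital promotes liver tumours in mice without reacting with DNA, and such tumours often carry an activated beta-catenin.

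Values are log2 signals, so a difference of 1 is a doubling, and they are given as mean ± SD (n = 5). A change is the treated mean less the control mean in log2 units, given with its standard error (SE). Adjusted p-values come from limma with Benjamini-Hochberg adjustment over all 12580 genes tested, and a gene was called higher or lower at an adjusted p under 0.05. Each gene is represented by its brightest probe set. Where other probe sets of a gene differ, their values are given for some genes only. Arrays carry no read depth, and their number limits the precision.

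The arrays looked like liver. The 9 measured hepatocyte markers averaged 14.20 to 14.32 on every array, with albumin at 15.00 in controls and 14.98 after phenobarbital. The first principal component of the 10 arrays held 44.7% of their variance and separated the groups. Correlations between arrays were 0.987 to 0.996 within groups and 0.980 to 0.990 between them. The mean over all tested genes was 8.22 to 8.25 in controls and 8.16 to 8.19 in treated arrays, without overlap (exact 2-sided permutation test, p = 0.00794, the smallest that 5 against 5 arrays allow, and 0.0423 after adjustment over the array measures compared). Its part in the calls was examined by rescaling, with the results given below.

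Promoter sequences are shown for 6 of the genes whose rises were largest or arose late, since relatives within 1 gene family moved by very different amounts. They are the 250 bases before the transcription start in RefSeq's table for GRCm38.p6, all on the plus strand. Capitals mark 2 motifs searched on both strands, the nuclear receptor core motif AGGTCA and the variant AGTTCA, and the TATA-type motif TATAAA, searched on the gene's strand only. The coordinates are chr7:25897408-25897657 for Cyp2b10, chr7:26061245-26061494 for Cyp2b13, chr7:26173159-26173408 for Cyp2b9, chr19:39006769-39007018 for Cyp2c55, chr19:39060756-39061005 for Cyp2c65 and chr12:109540746-109540995 for Meg3.
Cyp2b10: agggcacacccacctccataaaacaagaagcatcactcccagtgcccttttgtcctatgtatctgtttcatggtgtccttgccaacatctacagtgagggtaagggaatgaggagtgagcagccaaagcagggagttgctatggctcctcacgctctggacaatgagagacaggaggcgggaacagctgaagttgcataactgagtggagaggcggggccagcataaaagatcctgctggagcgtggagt
Cyp2b13: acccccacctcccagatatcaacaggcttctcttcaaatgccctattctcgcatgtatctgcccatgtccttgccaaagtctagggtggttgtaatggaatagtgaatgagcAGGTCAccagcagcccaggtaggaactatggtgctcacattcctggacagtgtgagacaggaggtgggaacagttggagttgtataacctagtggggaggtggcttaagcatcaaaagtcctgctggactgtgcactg
Cyp2b9: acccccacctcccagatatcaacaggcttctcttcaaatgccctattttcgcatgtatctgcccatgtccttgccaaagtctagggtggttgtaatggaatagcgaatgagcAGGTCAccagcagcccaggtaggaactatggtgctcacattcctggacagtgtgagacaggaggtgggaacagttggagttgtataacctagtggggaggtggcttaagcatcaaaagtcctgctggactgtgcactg
Cyp2c55: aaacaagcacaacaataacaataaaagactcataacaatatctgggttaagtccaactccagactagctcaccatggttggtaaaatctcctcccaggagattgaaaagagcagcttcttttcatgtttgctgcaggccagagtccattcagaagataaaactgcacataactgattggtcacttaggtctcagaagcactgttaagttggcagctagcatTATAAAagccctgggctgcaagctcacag
Cyp2c65: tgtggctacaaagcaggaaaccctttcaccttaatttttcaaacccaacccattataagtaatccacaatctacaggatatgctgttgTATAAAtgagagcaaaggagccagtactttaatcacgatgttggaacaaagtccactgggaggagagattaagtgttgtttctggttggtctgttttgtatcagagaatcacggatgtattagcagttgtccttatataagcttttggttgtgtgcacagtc
Meg3: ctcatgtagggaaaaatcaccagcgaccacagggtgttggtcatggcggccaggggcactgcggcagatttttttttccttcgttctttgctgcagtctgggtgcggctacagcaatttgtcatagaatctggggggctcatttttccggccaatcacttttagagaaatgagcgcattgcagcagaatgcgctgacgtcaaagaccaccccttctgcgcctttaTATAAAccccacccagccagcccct
The windows of Cyp2b13 and Cyp2b9 were identical at 248 of 250 aligned positions (99.2%), and each held AGGTCA. The window of Cyp2b10 matched either of them at 70.0% of aligned positions and held none of the 3 motifs. Those of Cyp2c55 and Cyp2c65 matched each other at 53.2%, and both held TATAAA. The motif began 29 bases before the start in Cyp2c55, 162 in Cyp2c65 and 25 in Meg3. Meg3, for which the table lists 2 starts and the first is shown, had 10 CG dinucleotides. Over all 32851 windows of this length in the table, 14.0% held AGGTCA, 11.8% held AGTTCA and 7.59% held TATAAA. Over the 12941 windows of genes tested the shares were 11.6%, 8.65% and 4.27%. Over the 52 windows of genes that rose at least 2-fold at day 91 they were 19.2%, 5.77% and 13.5%. Of the 25 windows of genes that fell at least 2-fold, 2 held AGGTCA, 6 held AGTTCA and 4 held TATAAA. These are descriptions of letters in a short window, which does not cover distant enhancers.

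After 91 days 581 genes (4.62% of those tested) were called higher and 2023 (16.1%) lower, 20.7% together. Most of these changes were small. Only 50 genes (0.397%) had risen and 18 (0.143%) had fallen by at least 2-fold. The largest rise was 7.13 on the log2 scale, of Cyp2c65, and the largest fall was 2.25, of Obp2a. Groups did not overlap for 273 of the higher calls (2.17% of genes tested) and 936 of the lower calls (7.44%). The excess of lower calls depended on the scaling. The median change over all genes was -0.07 as deposited, -0.03 after quantile normalization and -0.02 with each array centred on its median, and higher calls made up 22.3%, 38.9% and 42.4% of calls. Lower calls numbered 2023, 1222 and 1076. Counts of lower genes in lists under the other scalings therefore stand against smaller shares than 16.1%. The 3 scalings shared 575 higher and 1012 lower calls, and no gene was called in opposite directions. All 50 of the large rises and 17 of the 18 large falls were called under all 3.

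**Figure D1:**
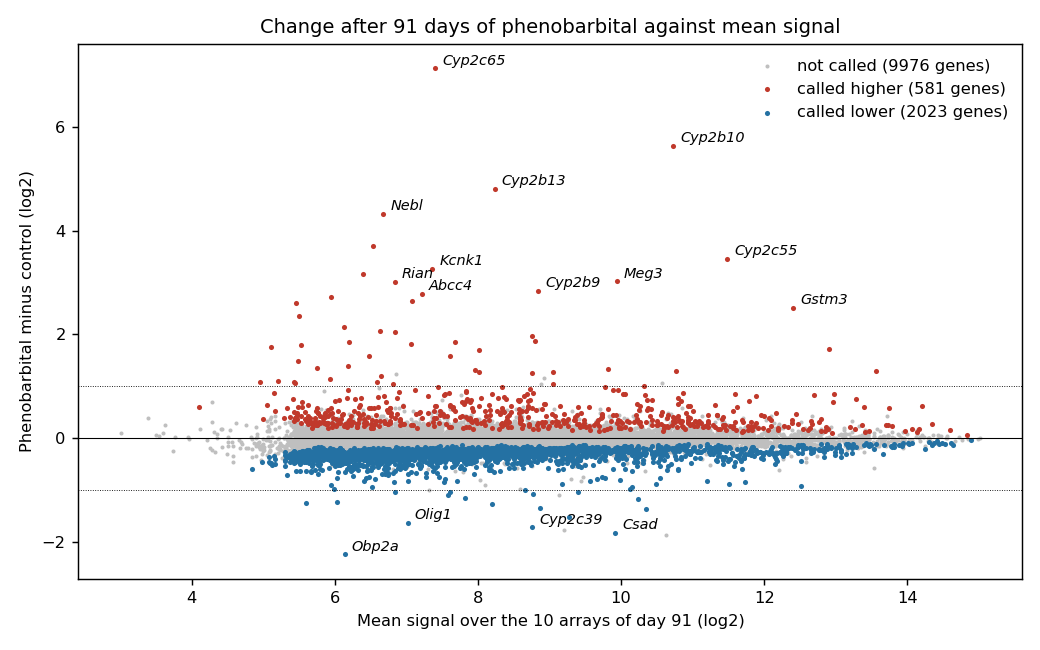
Change at day 91 (phenobarbital minus control, log2) against the mean signal of the 10 arrays of that day (log2), with 1 point per gene tested; dotted lines mark a 2-fold change. The 581 genes called higher reach 7.13 (Cyp2c65) and the 2023 called lower reach -2.25 (Obp2a).

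The largest rises were cytochromes P450, the enzymes that oxidise drugs and steroids, led by Cyp2c65, Cyp2b10 and Cyp2b13. Of 37 tested genes of P450 families 1 to 3, 17 were higher (45.9%) and 5 lower (13.5%), with a median change of 0.17. Cyp2c65 was the most changed gene of all. Its control signals were 3.83, 3.62, 3.49, 4.28 and 3.95, all below the lower quartile of their arrays, and its treated signals were 11.14, 10.74, 11.15, 10.90 and 10.92. No detection call was available to separate the control signals from background. The change was 7.13 (SE 0.33, adjusted p = 1.43e-18), with every treated array far above every control.

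Cyp2b10 signals were 8.35, 7.57, 7.98, 8.31 and 7.35 in controls and 13.64, 13.41, 13.59, 13.53 and 13.59 after phenobarbital. The treated arrays lay close together, and the controls spread more widely. The mean rose by 5.64 (SE 0.21, adjusted p = 2.32e-21), and all 3 of its probe sets rose, by 5.49 to 5.73. Its neighbours Cyp2b13 and Cyp2b9, which in untreated adults are mainly expressed in females, differed in their control spread. Cyp2b13 was at 5.83 ± 0.10 in controls and 10.64 ± 0.50 after phenobarbital, a rise of 4.81 (SE 0.56, adjusted p = 1.14e-07). Cyp2b9 scattered from 5.70 to 8.83 in controls (7.42 ± 1.36) and gathered at 9.83 to 10.98 after phenobarbital, a rise of 2.84 (SE 0.55, adjusted p = 0.000476). Because the 3 genes are close in sequence, cross-hybridisation between their probes is possible and was not tested.

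The Cyp2c genes, which lie side by side on chromosome 19, moved in both directions. Cyp2c55, the first in chromosome order, rose from 9.76 ± 0.39 to 13.21 ± 0.10, by 3.45 (SE 0.22, adjusted p = 3.02e-14). Cyp2c65 follows it. Further on came Cyp2c29, higher by 0.27 from an already high control signal of 14.21 ± 0.07. The next measured genes were lower. Cyp2c39 had control signals of 9.12, 9.74, 10.24, 9.38 and 9.60 and treated signals of 7.71, 8.81, 6.87, 7.45 and 8.61, a fall of 1.73 (SE 0.28, adjusted p = 5.73e-05). Cyp2c38 fell by 1.53 (SE 0.24, adjusted p = 3.37e-05) and Cyp2c68 fell by 0.92 (SE 0.13, adjusted p = 5.28e-06), each without overlap. In all 3 the treated replicates 2 and 5 kept the highest signals. Beyond them Cyp2c37 rose by 1.72, Cyp2c54 by 1.29 and Cyp2c50 by 0.62, again with no overlap. Cyp2c66, Cyp2c67, Cyp2c40 and Cyp2c69 were not tested. Cross-hybridisation may also affect these relatives.

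**Figure D2:**
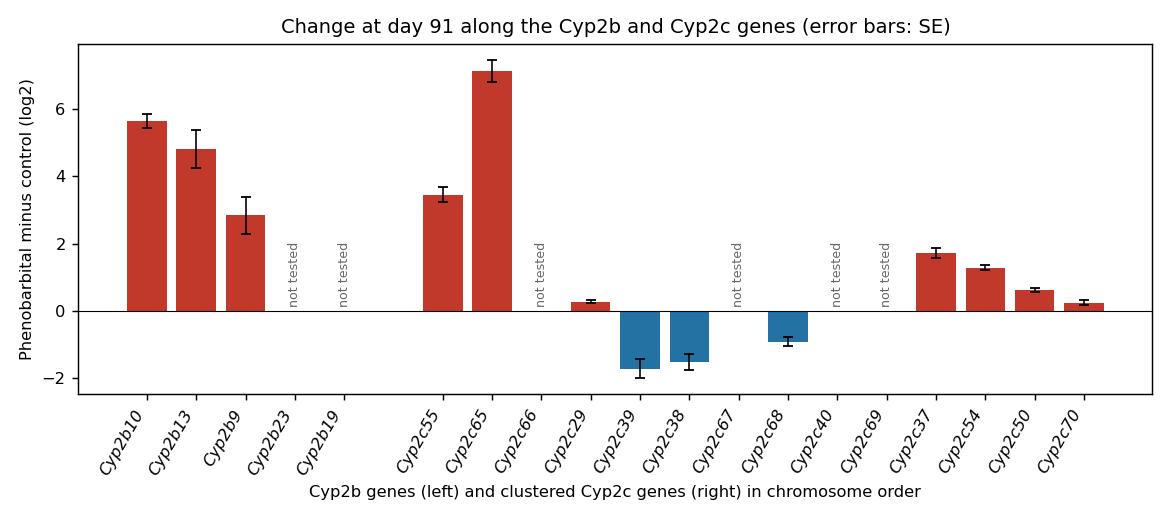
Change at day 91 (log2, bars; error bars are the SE of the fit) of the Cyp2b genes and of the clustered Cyp2c genes, in the order in which they lie on their chromosome; red is called higher and blue called lower. The lower genes Cyp2c39, Cyp2c38 and Cyp2c68 lie between relatives that were higher.

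Other P450 genes rose less. Cyp2d12 went from 5.59 ± 0.14 to 7.66 ± 0.70, a rise of 2.07, with treated arrays between 6.80 and 8.35. Cyp1a2, an oxidase of caffeine and heterocyclic amines, rose by 0.75 (SE 0.10, adjusted p = 2.37e-06). Its regulator Ahr, the dioxin receptor, rose from 9.82 ± 0.20 to 10.82 ± 0.32, by 1.00 (SE 0.15, adjusted p = 1.35e-05), although the second of its 2 probe sets did not (change -0.04). Cyp3a11, the main CYP3A of male liver and a target of the pregnane X receptor, rose by 0.15 (SE 0.03, adjusted p = 0.00196) from 14.52 ± 0.06.

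Phase II enzymes, which attach polar groups to oxidised drugs, were the other group with many rises. Of 20 glutathione transferases 6 were higher and 3 lower. Of 13 genes of glucuronidation 5 were higher, and of 18 genes of sulfation, acyl and methyl transfer 7 were higher; neither list had a gene called lower. Of 12 carboxylesterases, which hydrolyse ester drugs, 4 were higher and none lower. By comparison, 4.62% of all tested genes were called higher.

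Among the glutathione transferases Gstm3 had control signals of 10.75, 11.21, 11.57, 11.34 and 10.91 and treated signals of 14.01, 13.45, 13.94, 13.60 and 13.32. The rise was 2.51 (SE 0.14, adjusted p = 2.47e-16). Gstt3 rose by 1.30 (SE 0.19) and Gstm4 by 0.65 (SE 0.11), and the abundant Gstm1 by 0.58 (SE 0.07) from 13.45 ± 0.12. Gstm7 was lower by 0.41 and the mitochondrial and peroxisomal Gstk1 by 0.34. The mu-class genes are near copies of each other, so their probe sets may read more than 1 of them.

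Several sulfotransferases, which inactivate steroids and xenobiotics, rose. Sult3a1 was at 4.24, 4.07, 3.59, 4.67 and 4.21 in controls and 6.76, 7.65, 6.07, 6.79 and 6.53 after phenobarbital, a rise of 2.60 (SE 0.56, adjusted p = 0.00147). Sult1e1, which sulfates oestrogens, rose by 2.36 (SE 0.54, adjusted p = 0.0024) but unevenly: treated replicates 2 and 5 were at 5.51 and 5.73 and the other 3 between 6.69 and 7.78. In both genes 4 of 5 controls were below the lower quartile of their arrays. Sult1c2 was uniform after phenobarbital (8.66 ± 0.06 against 7.38 ± 0.27, a rise of 1.28), and Sult1d1 rose by 0.82. Papss2, which makes the sulfate donor, rose by 0.45. Glucuronidation genes rose by less than 1: Ugt2b35 by 0.84 (SE 0.09), Ugt2b34 by 0.61 (SE 0.06) and Ugdh, which makes the glucuronic acid donor, by 0.35 (SE 0.08). Among the carboxylesterases Ces2b rose by 1.07, Ces2a by 0.85 and Ces1g by 0.44.

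Of 24 efflux transporters 3 were higher (12.5%, against 4.62% of all genes) and 3 lower (12.5%, against 16.1%). Abcc4, which exports conjugates and cyclic nucleotides across the sinusoidal membrane, stood out: 5.83, 5.63, 6.20, 6.00 and 5.49 in controls against 9.21, 8.08, 8.87, 8.45 and 8.44, a rise of 2.78 (SE 0.26, adjusted p = 9.08e-10). The canalicular exporter Abcc2 rose by 0.72 (SE 0.15). Abcc3 was higher by 0.53 (adjusted p = 0.0407), a call lost when any 1 of 9 of the 10 arrays was left out (adjusted p up to 0.0841). Among 19 uptake carriers, Slc16a12 rose by 0.80 and Slc22a7 was lower by 0.42; the second call was lost without control replicate 5 or treated replicate 2 (adjusted p up to 0.0753). Of 20 NRF2 antioxidant genes 2 were higher (10%, against 4.62% of all genes), among them Srxn1 by 0.35, and 2 were lower (10%, against 16.1%).

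Of 18 genes of heme synthesis and electron supply 2 were higher and 1 lower, 16.7% called against 20.7% of all genes. Alas1, the rate-limiting enzyme of heme synthesis, was at 12.13, 12.83, 11.95, 10.06 and 12.32 in controls and 11.73, 12.12, 11.98, 11.96 and 13.20 after phenobarbital. The groups overlapped and the change of 0.34 (SE 0.43, adjusted p = 0.611) was not called for either probe set. The day 91 controls of Alas1 were high, at 11.86 ± 1.06, while the controls of days 1, 7 and 28 averaged 10.50, 10.10 and 9.64. Without control replicate 4, the low array, the change was -0.11. Cyb5a, which passes electrons to P450s, rose by 0.17 (SE 0.03, adjusted p = 8.23e-05). Por, the reductase of all microsomal P450s, had no probe set of a single gene and was not measured.

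The transcript of CAR was lower. Nr1i3, encoding CAR, was at 10.17, 10.44, 10.25, 10.40 and 10.16 in controls and 9.79, 9.97, 9.58, 9.63 and 9.93 after phenobarbital, a fall of 0.50 (SE 0.12, adjusted p = 0.0032) without overlap. The brightest probe set of its partner Rxra was lower by 0.39 (SE 0.09, adjusted p = 0.00429), but the other 2 changed by -0.07 and 0.19, and with all 3 averaged the change of -0.09 was not called (adjusted p = 0.309). The pregnane X receptor Nr1i2 differed by -0.11 (SE 0.10, adjusted p = 0.496). Of the 25 receptors and partners on this list, 1 was higher, the Ahr named above, and 4 were lower, a share of lower calls close to that of all genes (16.1%).

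Other large rises were of genes outside drug clearance. Nebl, an actin-binding protein of the nebulin family, was at 4.58, 4.35, 4.71, 4.49 and 4.43 in controls and 9.10, 8.21, 9.35, 9.02 and 8.53 after phenobarbital, a rise of 4.33 (SE 0.16, adjusted p = 2.32e-21). Only 1 of its 3 probe sets moved that far; the others rose by 0.64 and 0.14, the last not called. The unnamed transcript Gm10419 rose from 4.69 ± 0.15 to 8.39 ± 0.46, by 3.70 (SE 0.22, adjusted p = 5.92e-15). Kcnk1, a potassium leak channel, was at 5.58, 5.51, 5.81, 5.57 and 6.17 in controls and 9.56, 7.47, 9.97, 9.49 and 8.45, a rise of 3.26 (SE 0.25, adjusted p = 7.19e-12) seen by both probe sets.

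Several of these genes varied widely between treated arrays. Moxd1, a copper monooxygenase related to dopamine beta-hydroxylase, was at 4.42 to 4.70 in controls and at 8.05, 5.03, 9.01, 7.85 and 6.60 after phenobarbital. Its lowest treated array was just above the controls, and its highest far above them. The mean rise was 2.72 (SE 0.37, adjusted p = 2.56e-06). The day 91 controls of Moxd1, Nebl, Gm10419 and Sult3a1 lay below the median of their arrays. The filter counted arrays of any group, so such genes could be tested through treated arrays alone. Ackr3, a scavenging receptor of the chemokine CXCL12, was at 4.89 to 5.27 in controls and 8.0, 5.71, 7.64, 8.01 and 6.61 after phenobarbital, a rise of 2.14 (SE 0.29, adjusted p = 3.23e-06). Tmeff2, a membrane protein with follistatin-like domains, rose by 1.79 (SE 0.18, adjusted p = 5.76e-09) and ranged from 5.47 to 7.16 in treated arrays.

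The same treated arrays were repeatedly low or high. Replicate 2 had the lowest treated signal in 27 of the 50 genes that rose at least 2-fold (54.0%), against 20% of all genes tested. Replicate 3 had the highest in 24 of them (48.0%), against 15.9% of all genes. Among the 18 genes that fell at least 2-fold, replicate 3 was the lowest in 12 (66.7%, against 24% of all genes). Replicate 2 was the highest in 10 of them (55.6%, against 23.3%). Nebl, Gm10419, Kcnk1, Moxd1, Ackr3, Tmeff2 and Meg3 were lowest in replicate 2. The order was not universal, since replicate 2 had the highest signals of Cyp2b13, Cyp2b9, Sult3a1 and Serpinb1a. These genes were chosen from the same arrays, so the order is a description, and its cause was not tested.

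**Figure D3:**
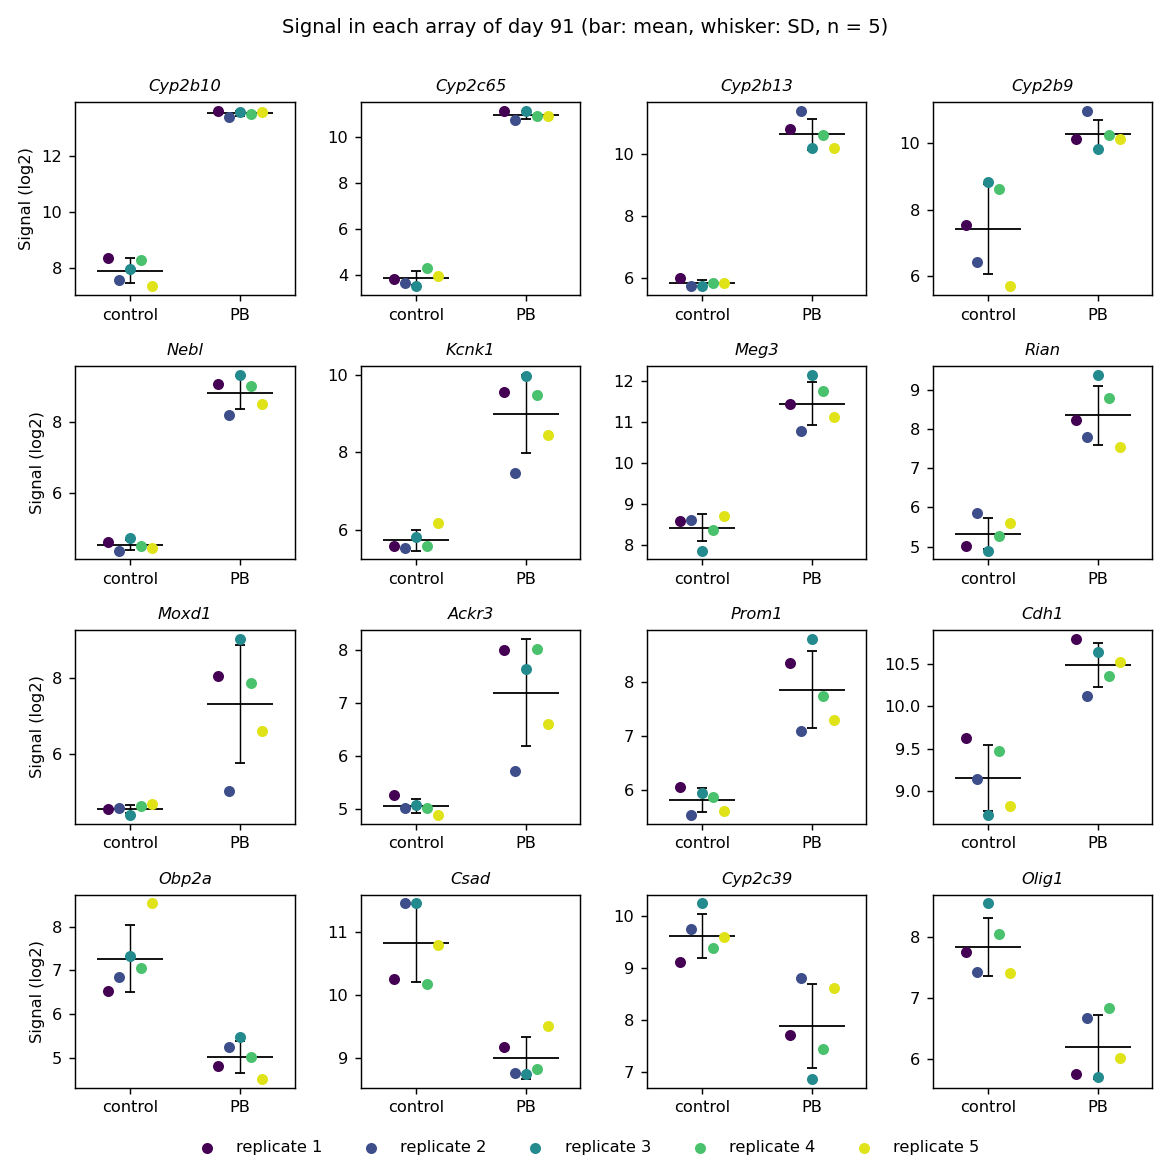
Signal (log2) in each control and phenobarbital (PB) array of day 91 for 16 genes, with the mean and SD of each group (n = 5); colours mark replicates, which carry no pairing between groups. Cyp2b10 and Cyp2c65 are tight after phenobarbital, while Moxd1 spans 5.03 to 9.01 and replicate 2 is its lowest array.

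The maternally expressed long noncoding RNAs of the imprinted Dlk1-Dio3 cluster on chromosome 12 were higher. Meg3, also called Gtl2, was at 8.58, 8.62, 7.87, 8.38 and 8.70 in controls and 11.43, 10.78, 12.15, 11.76 and 11.13 after phenobarbital, a rise of 3.02 (SE 0.19, adjusted p = 1.73e-14). Rian, the snoRNA host transcript, was at 5.01, 5.85, 4.90, 5.28 and 5.61 against 8.24, 7.80, 9.38, 8.80 and 7.53, a rise of 3.02 (SE 0.27, adjusted p = 4.11e-10). Neither overlapped between groups. Of 11 probe sets of Meg3, 9 were called higher, by 0.35 to 3.36, and the other 2 changed by 0.06 and 0.04. Of Rian all 4 were higher, by 0.51 to 3.02. Mirg, the microRNA host at the end of the cluster, rose by 0.29 (SE 0.09, adjusted p = 0.0197), a call lost without control replicate 5 or treated replicates 1 or 4 (adjusted p up to 0.0752). The paternally expressed Dlk1 was below the filter, and its 2 probe sets, fitted with all probe sets, were lower by 0.33 and 0.28 at signals under 5. The probe sets of Meg3 and Rian lie on transcripts that may be parts of 1 long RNA, so they are not independent.

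Other imprinted genes had smaller changes. Of 21 tested, 3 were higher (14.3%, against 4.62% of all genes) and 6 lower (28.6%, against 16.1%), with a median change of -0.11. After quantile normalization the counts were 4 and 3. Peg3 had the largest change at 0.58 and Igf2 was lower by 0.28; both calls were lost without any 1 of 7 arrays (adjusted p up to 0.160 and 0.120). Few genes that write, read or remove DNA methylation were called. Dnmt1 changed by -0.17 (adjusted p = 0.212), Dnmt3b by -0.24 (adjusted p = 0.227), and Dnmt3a, Tet2 and Tet3 by less than 0.02, with signs that depended on the setting. Tet1 was below the filter. Of 18 such genes only Smug1, a uracil-DNA glycosylase, was called (5.56%, against 20.7% of all genes). Its change was 0.61 (adjusted p = 0.0397), a call lost without any 1 of 7 arrays (up to 0.138). Of 27 Polycomb, trithorax and histone deacetylase genes none was higher and 3 were lower (11.1%, against 16.1% of all genes), among them Hdac4 by 0.39 (SE 0.08).

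A mixed group of secreted and membrane proteins rose. Pnliprp1, a lipase-related protein named after the pancreas, rose by 3.17 (SE 0.36, adjusted p = 8.92e-08), from 4.80 ± 0.34 to 7.98 ± 0.34. None of the 6 tested exocrine pancreas markers was called. The mean of the 10 measured, including those below the filter, was 5.58 to 6.03 in controls and 5.71 to 5.84 after phenobarbital. The uncharacterised 1700067K01Rik rose by 2.64 (SE 0.17, adjusted p = 3.12e-14). Prom1, known as CD133, rose by 2.04 (SE 0.37, adjusted p = 0.000195), with treated signals of 8.35, 7.10, 8.80, 7.75 and 7.30 against 5.55 to 6.07 in controls. Serpinb1a, an inhibitor of neutrophil elastase, went from 7.77 ± 0.09 to 9.73 ± 0.39, by 1.96. Cnmd, a cartilage glycoprotein, rose by 1.88, Smpd3, a neutral sphingomyelinase, by 1.85, and the plasma glycoprotein gene Orm3 by 1.84, all with SE under 0.20 and without overlap. The other 2 probe sets of Smpd3 changed by 0.38 and 0.01, and their average with the brightest was 0.75. Ccn4, a matricellular protein first found as a Wnt target, rose by 1.82 (SE 0.17).

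Gadd45b and Cdh1 were among the further rises. Gadd45b, a stress-induced regulator of p38 signalling and a known CAR partner, was at 6.69 to 7.03 in controls and 8.97, 8.02, 8.72, 8.64 and 7.70 after phenobarbital, a rise of 1.59 (SE 0.21, adjusted p = 1.84e-06) called in 2 of 3 probe sets. Cdh1, encoding E-cadherin, was at 9.62, 9.14, 8.72, 9.47 and 8.82 in controls and 10.79, 10.12, 10.64, 10.36 and 10.52, a rise of 1.33 (SE 0.12, adjusted p = 4.76e-10). Further rises were the serine protease Prss8 by 1.69, the G protein subunit Gna14 by 1.28, Ndrg1 by 1.25 and the keratin Krt4 by 1.09. Of the 6 tested cholangiocyte markers none was called higher and 1 was called lower. The mean of the 9 measured, including those below the filter, was 5.45 to 5.86 in controls and 5.50 to 5.84 after phenobarbital. The part of other cell types in these rises was not tested further.

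The largest fall was of Obp2a, a lipocalin related to odorant-binding proteins and male-biased in liver. It was at 6.54, 6.85, 7.33, 7.06 and 8.53 in controls and 4.82, 5.25, 5.47, 5.02 and 4.52 after phenobarbital, and fell by 2.25 (SE 0.26, adjusted p = 1.12e-07). Csad, which makes the taurine precursor hypotaurine, was at 10.25, 11.46, 11.46, 10.17 and 10.80 against 9.17, 8.76, 8.74, 8.82 and 9.51, and fell by 1.83 (SE 0.25, adjusted p = 3.23e-06). Olig1, a transcription factor best known from oligodendrocytes, was at 7.75, 7.42, 8.55, 8.05 and 7.41 against 5.76, 6.68, 5.71, 6.84 and 6.01, and fell by 1.63 (SE 0.21, adjusted p = 1.61e-06). No treated array reached the controls in any of these 3.

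Further falls without overlap came from varied functions. Dnase2a, a lysosomal nuclease, fell by 1.37, the phospholipid carrier Pltp by 1.17, Ntrk2, the receptor of brain-derived neurotrophic factor, by 1.10, Acnat2, which conjugates fatty acids to amino acids, by 1.08, the kinetochore protein Spc25 by 1.05 and the membrane protein Tmem98 by 1.04. Steroid and retinol dehydrogenases were among them: Rdh16f2 fell by 0.99 (SE 0.14) and Hsd17b6 by 0.90 (SE 0.17). Of the 8 probe sets of Ntrk2, 2 were called lower and 2 higher (by 0.31 and 0.37), and their average was lower by 0.27 (adjusted p = 8.45e-05). Serpina7, thyroxine-binding globulin, fell by 1.34 (SE 0.31, adjusted p = 0.00265) with overlapping groups, from 9.54 ± 0.65 to 8.20 ± 0.69.

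Many genes of lipid oxidation and lipid handling were lower. Of 31 PPARA targets and genes of fatty acid oxidation, 15 were lower (48.4%, against 16.1% of all genes) and none higher, with a median change of -0.22 against -0.07 over all genes. After quantile normalization 13 and after centring 9 were lower.  The acyl-CoA thioesterase Acot3 fell by 1.15 (SE 0.29, adjusted p = 0.00557), the trifunctional protein genes Hadha by 0.61 (SE 0.13) and Hadhb by 0.25 (SE 0.06), the very-long-chain dehydrogenase Acadvl by 0.21 (SE 0.05), and the receptor Ppara itself by 0.46 (SE 0.12). Acot1 was lower by 1.01, a call lost without any 1 of 5 arrays (adjusted p up to 0.154) and under both other scalings. Cpt1a, the gate of mitochondrial import, was lower by 0.39, lost without any 1 of 6 arrays (up to 0.0995).

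Of 31 genes of lipid droplets, lipases and lipoproteins, 16 were lower (51.6%) and 3 higher, with a median of -0.09. Under the other scalings 14 and 11 were lower. The droplet coats Plin4, Plin5 and Plin2 fell by 0.47, 0.46 and 0.36, the triglyceride lipase Pnpla2 by 0.47 and the cholesterol esterifier Lcat by 0.40. Very abundant apolipoprotein transcripts fell by small amounts, Apoa5 by 0.30 and Apoe by 0.13 (SE 0.02, adjusted p = 0.000441). Against this, lipoprotein lipase, Lpl, which normal adult hepatocytes express little, rose from 9.29 ± 0.34 to 10.26 ± 0.17, by 0.97 (SE 0.15, adjusted p = 1.39e-05). The third gene called higher, beside Lpl and Pnliprp1, was Pnpla3 at 1.30 (SE 0.39, adjusted p = 0.0157), lost without control replicate 5 (adjusted p = 0.0650).

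Of 28 genes of fatty acid and glyceride synthesis 2 were higher (7.14%) and 4 lower (14.3%), near the 4.62% and 16.1% of all genes. The monoacylglycerol transferase Mogat1 fell by 1.23 (SE 0.21, adjusted p = 0.000119), from 6.65 ± 0.78 to 5.42 ± 0.50, with control replicate 3 far above the other controls at 8.04. Gpat4 fell by 0.45. Among 21 genes of cholesterol synthesis and uptake, the squalene epoxidase Sqle rose by 0.73 (SE 0.19, adjusted p = 0.006), from 9.99 ± 0.35 to 10.72 ± 0.11. On that list 2 in all were higher (9.52%) and 1 lower (4.76%). Of 21 bile acid genes 2 were higher (9.52%) and 3 lower (14.3%). Fgfr4, the receptor of the gut hormone FGF15, fell by 0.43 (SE 0.07, adjusted p = 3.35e-05).

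Of 44 respiratory chain subunits 13 were lower (29.5%, against 16.1% of all genes) and none higher, with a median of -0.09 against -0.07 over all genes. Under the other scalings 11 and 5 were lower, and 6 were with all probe sets of a gene averaged. Over all genes 1222, 1076 and 2214 were lower in these settings, against 2023 in the main fit. Cox8a fell by 0.23 (SE 0.07) and Atp5b by 0.21 (SE 0.06). With arrays centred the list median was -0.04.

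Of 25 genes of amino acid catabolism 8 were lower (32%) and 1 higher, and of 23 genes of taurine, methionine and one-carbon metabolism 6 were lower (26.1%) and none higher, against 16.1% lower and 4.62% higher of all genes. With arrays centred 5 of each list were lower. The aspartate transaminase Got1 fell by 0.59 (SE 0.15), the branched-chain transaminase Bcat2 by 0.57 (SE 0.15) and the kynurenine pathway enzymes Kynu and Haao by 0.34 and 0.27. Below Csad in the one-carbon list came Dmgdh at -0.44 and Sardh at -0.40, which oxidise dimethylglycine and sarcosine, Cbs at -0.39 and Pemt at -0.31. Of 19 genes of gluconeogenesis and fasting 3 were lower (15.8%, near the 16.1% of all genes), Got1, Pcx (by 0.27) and Fbp1 (by 0.21). Of 26 genes of glycolysis, glycogen and the pentose phosphate path 5 were lower (19.2%, near the 16.1% of all genes) and 1 higher (3.85%). Ldha was lower by 0.36 (SE 0.05, adjusted p = 3.21e-06) without overlap.

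**Figure D4:**
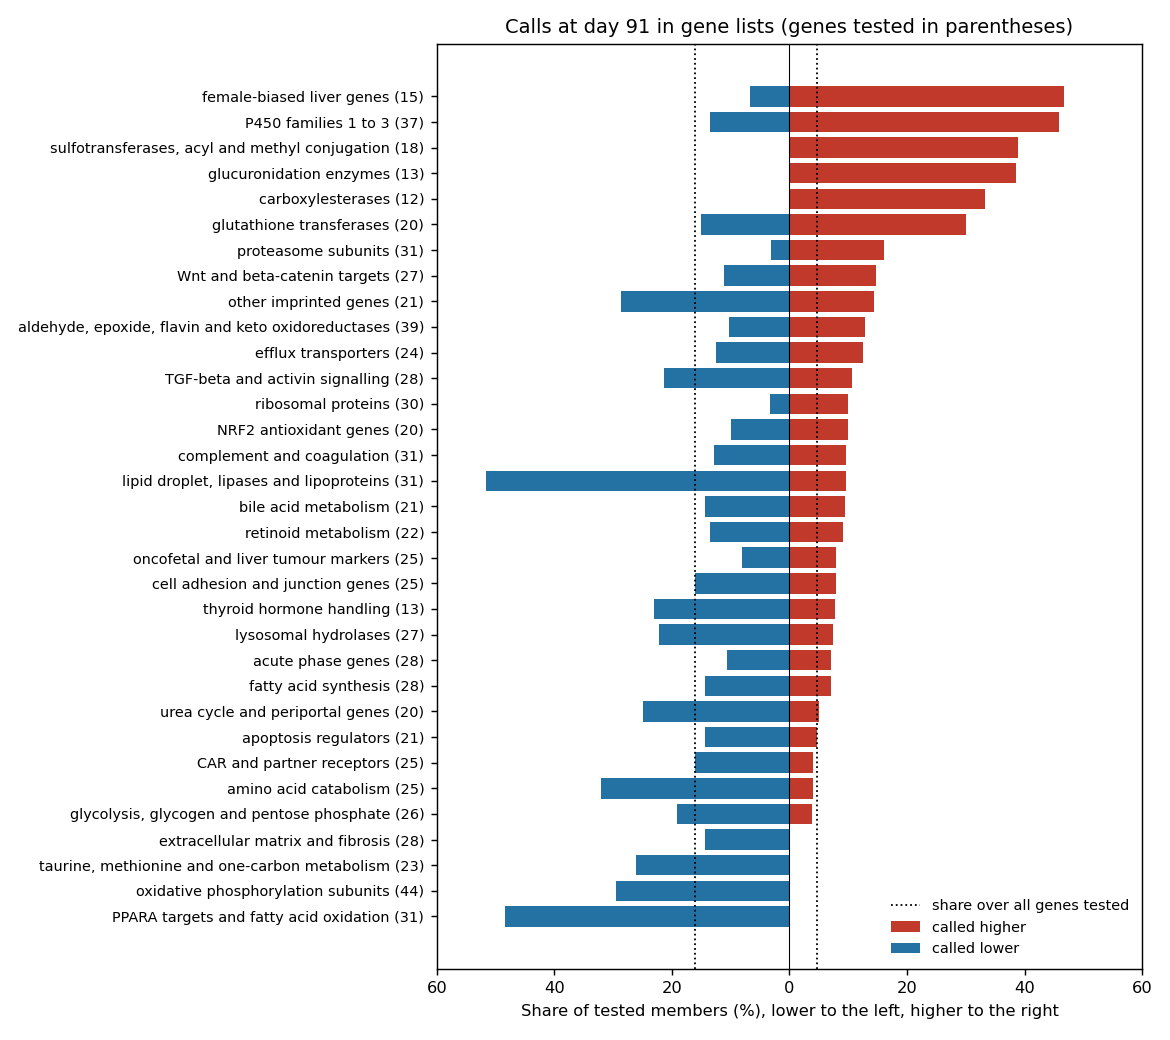
Share of tested members called higher (right, red) and lower (left, blue) at day 91 in gene lists with at least 10 tested members and at least 4 calls; the number tested is in parentheses. Dotted lines mark the shares over all genes tested, 4.62% higher and 16.1% lower, and the longest bars are the lower calls of lipid droplet, lipase and lipoprotein genes (51.6%) and of PPARA targets and fatty acid oxidation (48.4%). Bars of fatty acid synthesis and bile acid metabolism, both 14.3% lower, end short of the line.

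Few cell division genes were called at day 91. Of 27 replication genes none was higher and 2 were lower (7.41%), and of 25 mitosis genes none was higher and 1 was lower (4%). Of all genes 4.62% were higher and 16.1% lower. Mki67, the proliferation marker, was at 4.89, 4.46, 5.37, 5.43 and 4.93 in controls and 5.20, 4.92, 5.39, 5.09 and 5.17 after phenobarbital, a difference of 0.14 (SE 0.37, adjusted p = 0.828). All of these signals lay below the medians of their arrays (5.69 to 5.78), so Mki67 passed the filter through arrays of other times. Its mean over all arrays of the study was 6.54. At such low signals a fall or a modest rise at day 91 could go unseen. The lower calls were Mcm10 at -0.60, Pole at -0.47 and Bub1b at -0.53, and each was lost without 1 of several arrays (3, 8 and 8 of 10, adjusted p up to 0.0770, 0.124 and 0.127). Ccnd1 differed by 0.36 (SE 0.18, adjusted p = 0.152). The inhibitor Cdkn2c rose by 0.77 (SE 0.12, adjusted p = 1.68e-05), from 7.89 ± 0.13 to 8.66 ± 0.09, and Ccnd3 fell by 0.38 (SE 0.09). The p53 target Cdkn1a overlapped between groups, at 8.15 ± 0.33 and 7.71 ± 0.58 (adjusted p = 0.292). Of 19 p53 targets and Gadd45 genes 1 was higher (5.26%) and 2 lower (10.5%), and the junction protein Perp fell by 0.42 (SE 0.07). Of 21 apoptosis regulators 1 was higher (4.76%), Bik by 0.61 (SE 0.17), and 3 lower (14.3%), among them the executioner caspase Casp6 by 0.44 (SE 0.12).

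Among 25 oncofetal and liver tumour markers 2 were higher (8%, against 4.62% of all genes) and 2 lower (8%, against 16.1%). Prom1 is described above. The fetal plasma protein Afp was at 4.30 to 4.92 in controls and 5.29 to 5.88 after phenobarbital, higher by 0.87 (SE 0.27, adjusted p = 0.0192). Only 1 of its 5 probe sets was called, and the call was lost without control replicate 2 or treated replicate 4 (adjusted p up to 0.0608). Golm1, a Golgi protein, fell by 0.45 (SE 0.12).

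Beta-catenin was not called, with Ctnnb1 at 12.53 ± 0.04 and 12.55 ± 0.04 (adjusted p = 0.793). Averaged over all its probe sets it was lower by 0.18 (adjusted p = 0.0491), and 1 of its 3 probe sets was called, at -0.45. Of 27 genes of Wnt signalling and its liver targets 4 were higher (14.8%, against 4.62% of all genes) and 3 lower (11.1%, against 16.1%). Beside Ccn4, the dicarboxylate carrier Slc13a3 rose by 0.62 (SE 0.18, adjusted p = 0.0137). Glul, the pericentral glutamine synthetase, was at 12.88 ± 0.08 and 12.70 ± 0.11 (adjusted p = 0.0546). The feedback inhibitor Notum was lower by 0.41, a call lost without control replicate 4 or treated replicate 1 (adjusted p up to 0.0749). Of 20 periportal genes 5 were lower (25%) and 1 higher (5%), the Cdh1 described above. Etnppl, a phospholyase of that zone, fell by 0.86 (SE 0.15, adjusted p = 9.45e-05). Of 25 junction and adhesion genes 2 were higher (8%) and 4 lower (16%). The tight junction protein Cldn2 was at 10.69, 11.09, 11.08, 10.78 and 10.97 in controls and 9.91, 10.49, 9.92, 10.12 and 10.32, and fell by 0.77 (SE 0.10, adjusted p = 2.12e-06).

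Genes with a sex bias in mouse liver were called mainly among those higher in females. Of 15 tested female-biased genes 7 were higher (46.7%, against 4.62% of all genes) and 1, Acot3, was lower. The higher ones included Cyp2b13, Cyp2b9, Sult3a1, Prom1, Cyp2g1 (1.04) and Cyp3a44 (0.80), which overlap with the drug-metabolism lists. Of 17 male-biased genes only Obp2a was called, and the median was -0.06. In the growth hormone axis 1 of 18 was higher (5.56%) and 2 lower (11.1%, against 16.1% of all genes). The leukaemia inhibitory factor receptor Lifr rose by 0.63 (SE 0.16) and Igf1 fell by 0.27 (SE 0.07). Neither call was kept when probe sets were averaged: the other 2 of Lifr changed by 0.08 and -0.71, which turned its average to -0.000235 (adjusted p = 1.00), and the average of Igf1 was -0.15 (adjusted p = 0.128). In thyroid hormone handling the deiodinase Dio1 rose by 0.82 (SE 0.15, adjusted p = 0.00022), from 9.92 ± 0.30 to 10.75 ± 0.23, and the receptor Thra fell by 0.33 (SE 0.08), next to the Serpina7 fall given above. Of 22 retinoid genes 2 were higher (9.09%, against 4.62% of all genes) and 3 lower (13.6%, against 16.1%). The retinol dehydrogenase Rdh16 fell by 0.89 (SE 0.25, adjusted p = 0.00959).

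Some matrix and TGF-beta genes were called in treated arrays. Of 28 genes of TGF-beta and activin signalling 3 were higher (10.7%, against 4.62% of all genes) and 6 lower (21.4%, against 16.1%). Tgfbr2 rose by 0.57 (SE 0.10) and Smad1 by 0.44 (SE 0.09), while the decoy receptor Bambi fell by 0.56 (SE 0.10) and the activin subunit Inhbc by 0.51 (SE 0.13). Of 28 matrix genes none was higher and 4 were lower (14.3%, near the 16.1% of all genes), among them Loxl1 by 0.44 and Bgn by 0.35. Col5a3, outside that list, was lower by 0.89 (SE 0.16, adjusted p = 0.000161) in its brighter probe set and higher by 0.28 (adjusted p = 0.0344) in the dimmer. Some markers of stellate cells, the vitamin A-storing pericytes that make much of this matrix, were lower. Of 11 tested, 4 were lower (36.4%, against 16.1% of all genes). The mean of the 12 measured was 8.64 to 8.75 in controls and 8.35 to 8.57 after phenobarbital (exact 2-sided permutation test, p = 0.00794, 0.0423 after adjustment over the array measures). Ecm1 fell by 0.37 and Reln by 0.30. The vitamin A esterifier Lrat was lower by 0.65, a call lost without any 1 of 5 arrays (adjusted p up to 0.159) and under both other scalings. In bulk tissue fewer stellate cells and less RNA per cell cannot be told apart, and their part in the matrix and retinoid genes called lower was not tested.

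Shares called in immune and stress groups ranged from 5.26% (heat shock genes) to 29.6% (lysosomal hydrolases), on both sides of the 20.7% of all genes. Of 26 interferon response genes 3 were higher (11.5%, against 4.62% of all genes) and none lower, with the RNA sensor Ifih1 up by 0.44 (SE 0.10). Of 22 cytokine and chemokine genes 1 was higher, Ccl9 from 11.16 ± 0.21 to 12.01 ± 0.07, by 0.85 (SE 0.08, adjusted p = 2.93e-09), and 2 were lower. Means of Kupffer cell, T and NK cell, neutrophil and endothelial markers overlapped between groups, and of 12 Kupffer cell markers none was called. Of 28 acute phase genes 2 were higher (7.14%), with Orm3 the larger, and 3 lower (10.7%). Of 31 complement and coagulation genes 3 were higher (9.68%) and 4 lower (12.9%), Mbl1 by 0.32 (SE 0.06). Of 31 proteasome subunits 5 were higher (16.1%, against 4.62% of all genes) and 1 lower. Of 27 genes of the unfolded protein response 2 were higher (7.41%), and of 19 heat shock genes 1 was higher (5.26%). Of 27 lysosomal hydrolases 2 were higher (7.41%) and 6 lower (22.2%, against 16.1% of all genes).

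The choice of probe set mattered for many of these genes. Of the 154 genes named here that were called, 65 had several probe sets, and with all of them averaged 28 kept the call with a change within 1.5 times, 22 kept it with a change smaller by more than that, and 15 lost it. Beside Rxra, Lifr and Igf1 the lost calls were Etnppl at -0.68 (adjusted p = 0.138), Lrat at -0.42 (0.195), Hsf2 at 0.30 (0.202), Bub1b at -0.28 (0.0526), Papss2 at 0.26 (0.0516), Pnpla2 at -0.17 (0.0720), Afp at 0.13 (0.373), Hadhb at -0.12 (0.139), Cpt1a at -0.11 (0.630), Reln at -0.11 (0.133), Igf2 at -0.066 (0.464) and Kynu at -0.050 (0.684). The averages of Meg3, Rian and Nebl were 1.71, 1.81 and 1.70, and that of Spc25 was -0.48. Those of Tmeff2, Slc13a3, Hdac4, Ccnd3, Gstm7, Loxl1 and Mcm10 were 0.99, 0.27, -0.18, -0.20, -0.26, -0.27 and -0.29. Probe sets were called in both directions for Ntrk2 and Col5a3. Of the lipid lists, 14 genes of PPARA targets and fatty acid oxidation and 14 of lipid droplets, lipases and lipoproteins were lower with averaged probe sets.

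Set beside the earlier times, the large rises at day 91 were mostly already present. Effects at each time use that time's own controls, so the mean differences of different times share no array. The calls do share information, since the spread of each gene was estimated over the arrays of all times together. The overlaps of calls between times are therefore not independent recurrences. Of the 50 genes that rose at least 2-fold, 30 were called higher at day 1 (15.8% of all genes were), 40 at day 7 (5.64%), 44 at day 28 (11.2%) and 29 at all 3. The genes called at none of them were Moxd1, Cdh1, Cib3 (1.19) and 4933438K21Rik (1.07). Of the 18 large falls, 4 were called lower at day 1 (16.7% of all genes were), 8 at day 7 (11.4%) and 13 at day 28 (18.1%), and Cyp2c38, Acot3, Mogat1 and Slc25a25 (-1.04) at none. Over all calls, 36.7% of the 581 higher genes were also higher at day 1, 46.5% at day 7 and 42.3% at day 28, where they made up 10.7%, 38.1% and 17.5% of the higher calls. Of the 2023 lower genes 13.3% were lower at day 1, below the 16.7% of all genes, 33.8% at day 7 and 18.2% at day 28, close to the 18.1% of all genes; they made up 12.8%, 47.8% and 16.2% of the lower calls. At day 1, 261 of these 2023 genes were called higher, a smaller share than the 15.8% of all genes.

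Some large effects were present from the first day. The Cyp2b10 effect was 6.21, 6.36, 6.90 and 5.64 at days 1, 7, 28 and 91, the last smaller than at day 28 by 1.26 (SE 0.30, adjusted p = 0.00485). The Gstm3 effect was 2.51, 2.13, 2.65 and 2.51. Gstt3 had effects of 2.39, 2.88 and 2.68 before day 91 and 1.30 then, smaller by 1.38 than at day 28 (SE 0.27, adjusted p = 0.00181) and by 1.09 than at day 1 (adjusted p = 0.00408). Cyp2b10 and Gstt3 were the only large rises called smaller than at day 28.

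Others grew with time. Of the 50 genes, 24 had a larger effect at day 91 than at day 1 (11.1% of all genes had a difference called in that direction) and 10 a larger effect than at day 28 (9.13%). The 50 genes were chosen for their day 91 change, which both differences contain. A larger share than over all genes was therefore favoured by the choice. The Cyp2c65 effect was 1.06, 3.86, 6.93 and 7.13, larger at day 91 than at day 1 by 6.08 (SE 0.47, adjusted p = 4.70e-11). Nebl was level at day 1 with an effect of 0.15, then 0.59, 3.58 and 4.33, which at day 91 was larger than at day 28 by 0.75 (SE 0.22, adjusted p = 0.0178). The Meg3 effect was -0.19, 0.28, 2.25 and 3.02 and that of Rian -0.42, -0.07, 2.71 and 3.02. Against day 1 the differences were 3.21 (SE 0.28, adjusted p = 4.38e-10) and 3.44 (SE 0.40, adjusted p = 4.63e-07). Against day 28 the Rian difference of 0.31 was not called, and that of Meg3, 0.77 (adjusted p = 0.0363), was lost without 8 of the 20 arrays in turn (adjusted p up to 0.0870).

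Several effects were larger at day 91 than at day 28. The Moxd1 effect was 0.05, 0.28, 0.69 and 2.72, larger at day 91 than at day 28 by 2.03 (SE 0.52, adjusted p = 0.00798). Cdh1 effects were -0.15, 0.28, 0.21 and 1.33, a difference from day 28 of 1.12 (SE 0.17, adjusted p = 0.00049), with a small treated SD of 0.26. Lpl effects were 0.22, 0.13, -0.06 and 0.97, a difference of 1.04 (SE 0.21, adjusted p = 0.00188). Over all arrays of the study Cdh1 averaged 10.46, near its day 91 treated signals and above all its day 91 controls. Lpl averaged 11.62, above both of its day 91 group means. The day 91 controls of both genes were therefore low beside the arrays of other times. The part of these low controls in the late differences was not tested. For Tmeff2 the difference from day 28 was 1.01 (adjusted p = 0.00761). For Kcnk1 and Ackr3 the differences of 1.03 and 1.21 were called but lost without 11 of the 20 arrays in turn (adjusted p up to 0.0909 and 0.0822). Cyp2b13 had the largest difference from day 28, 2.90 (SE 0.79, adjusted p = 0.0113), with effects of 2.14, 4.09, 1.92 and 4.81 that followed no steady course.

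**Figure D5:**
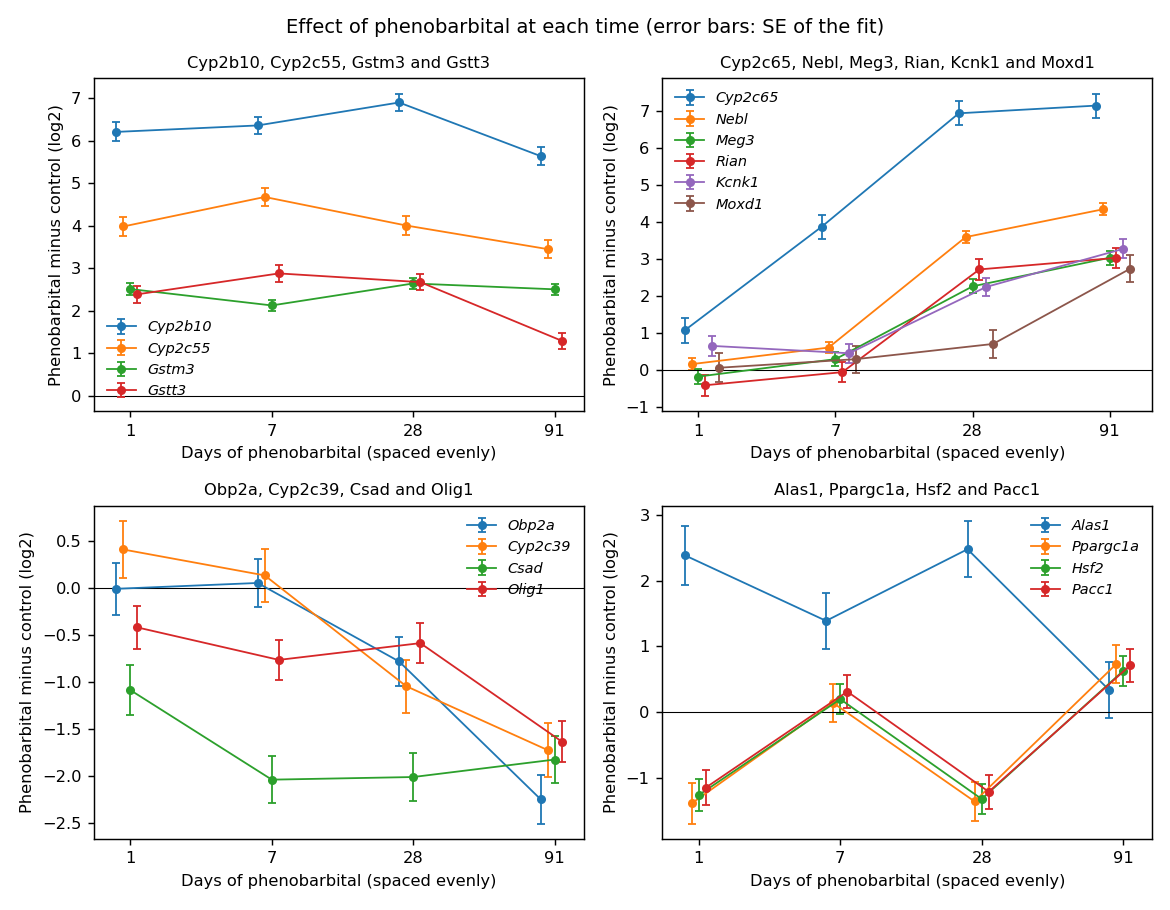
Phenobarbital minus control (log2) at days 1, 7, 28 and 91, spaced evenly along the axis, with the SE of the fit; 18 genes in 4 panels. Cyp2b10 stays between 5.64 and 6.90, and Nebl, Meg3 and Rian climb mainly between days 7 and 28. The effects of Obp2a and Cyp2c39 are lowest at day 91, and Alas1 loses its effect then.

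Of the 18 large falls, 5 had a lower effect at day 91 than at day 28 (12.5% of all genes had a difference called in that direction) and 10 than at day 1 (19.4%). These shares too were favoured by choosing the genes for their day 91 change. Obp2a effects were -0.01, 0.05, -0.78 and -2.25, lower at day 91 than at day 28 by a difference of -1.47 (SE 0.37, adjusted p = 0.00717). Those of Cyp2c39 were 0.41, 0.13, -1.04 and -1.73, a difference from day 1 of -2.13 (SE 0.41, adjusted p = 0.000326). Olig1 fell further than at day 28 by a difference of -1.05 (SE 0.30, adjusted p = 0.0149) and Cyp2c38 by -1.12 (SE 0.34, adjusted p = 0.0199). Csad was lower at every time, with effects of -1.09, -2.04, -2.01 and -1.83.

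Some genes whose effects differed between times also had differing control means. Alas1 effects were 2.39, 1.39, 2.48 and 0.34, a difference from day 28 of -2.14 (SE 0.60, adjusted p = 0.013), and its treated means of 12.89, 11.49, 12.12 and 12.20 moved less than its control means given above. Ppargc1a, a coactivator of fasting metabolism, had effects of -1.39, 0.14, -1.36 and 0.73, a difference from day 28 of 2.09 (SE 0.41, adjusted p = 0.00177), and its control means were 8.32, 7.37, 8.47 and 7.14. Hsf2 and Pacc1 showed the same alternation, with effects of -1.26, 0.20, -1.32 and 0.63 and of -1.15, 0.31, -1.21 and 0.71. Their day 91 calls were each lost without 7 of the 10 arrays in turn (adjusted p up to 0.128 and 0.137). Mlf2 showed the inverse, 0.58, -0.53, 0.61 and -0.75. Aacs, an acetoacetate-activating enzyme, had effects of 0.08, -0.36, 1.32 and -0.28. The cause was not tested.

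Proliferation genes differed between day 91 and day 1. Of the 27 replication genes 25 were higher at day 1, with a median effect of 1.14 against -0.12 at day 91, and of the 25 mitosis genes 22 were higher at day 1, with medians of 1.18 and -0.02. The mitotic kinase gene Pbk had an effect of 2.11 at day 1 and -0.49 at day 91, a difference of -2.60 (SE 0.42, adjusted p = 5.57e-05), and Tcf19, named as a cell cycle transcription factor, effects of 1.31 and -0.52, a difference of -1.83 (SE 0.32, adjusted p = 0.000135). Spc25 went from an effect of 0.75 to -1.05, a difference of -1.80 (SE 0.36, adjusted p = 0.000441).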

How the data were processed

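Liver RNA was measured on 39 Affymetrix mouse arrays. The deposited values are log2 signals per probe set, from 2.42 to 15.12, and the normalization behind them is not given in the sources used here. GCOS is named in the submitters' processing notes, without a version. Of 45101 probe sets, 34958 named 1 gene, 932 named several and 9211 were unnamed. The brightest single-gene probe set stood for each of 18193 genes, and 12580 genes above the array median on at least 4 arrays were tested. Those arrays could be of any group, so a gene with low signals in controls could pass through treated arrays alone.

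Group means were fitted with limma 3.58.1 (R 4.3.3), with trended variances, over all 39 arrays and 31 residual degrees of freedom. Contrasts were phenobarbital minus control at each time, and the day 91 effect minus the day 28 or day 1 effect, with Benjamini-Hochberg adjustment. Single measures per array were compared with exact permutation tests.

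The comparison and the gene lists were chosen with earlier results of these data known. Genes were named as the 25 largest rises and 20 largest falls among calls whose groups did not overlap, up to 3 called rises and 3 called falls per list, the 5 highest and 5 lowest differences between times, and a preset list of CAR, imprinted, proliferation and DNA methylation genes. Others were chosen after their values were seen: Cyp2c37, Cyp2c54, Tmeff2, Cyp1a2, Cyp2c29, Cyp2c50, Cyp2g1, Cyp3a44, Sult1d1, Papss2, Gstm1, Cpt1a, Acadvl, Hadhb, Ppara, Plin2, Plin5, Pnpla2, Apoe, Apoa5, Lcat, Ndrg1, Gna14, Prss8, Krt4, Cbs, Pemt, Kynu, Haao, 4933438K21Rik, Cib3 and Slc25a25.

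Alternatives changed the scaling, the filter, the choice of probe set, array weights and covariates, and left out each array in turn.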

Additional observations from a re-analysis of the deposited data

Results flagged for a closer look

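Single arrays stood far from the other 4 of their group in the following day 91 signals, where chance alone flags about 1 group in 20. Among controls, replicate 1 was apart for Ccnd3 (8.12), Gpat4 (8.62), Atp5b (13.35), Gstm1 (13.24), Cpt1a (10.78) and Haao (12.73), and in the difference between 3 prime and 5 prime control probe sets (0.87). Control replicate 3 was apart for Srxn1 (8.58), Spc25 (8.08), Mogat1 (8.04), Lifr (10.30) and Pbk (5.75). Control replicate 2 was apart for Tcf19 (6.28) and Reln (10.45), and replicate 5 in the mean of T and NK cell markers (5.51). After phenobarbital, replicate 1 was apart for Sult1c2 (8.77) and Smpd3 (7.40), replicate 3 for Golm1 (5.96) and Pcx (11.95), and replicate 5 for Alas1 (13.20), Ecm1 (9.60) and the mean of cholangiocyte markers (5.84). Replicate 4 was apart in the mean of Kupffer cell markers (8.57).

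The effect of phenobarbital at day 91 differed from that at day 28 by the limma interaction term in several genes. It was larger, or less negative, by 2.90 for Cyp2b13, 2.09 for Ppargc1a, 2.03 for Moxd1, 1.95 for Hsf2, 1.92 for Pacc1, 1.21 for Ackr3, 1.19 for Afp, 1.12 for Cdh1, 1.04 for Lpl, 1.03 for Kcnk1, 1.01 for Tmeff2, 0.81 for Ahr, 0.77 for Meg3, 0.75 for Nebl and 0.59 for Cdkn2c. The difference was -2.14 for Alas1, -1.60 for Aacs, -1.47 for Obp2a, -1.38 for Gstt3, -1.36 for Mlf2, -1.26 for Cyp2b10, -1.12 for Cyp2c38, -1.05 for Olig1, -0.98 for Mogat1, -0.62 for Cldn2 and -0.61 for Ntrk2. The calls of Afp (without day 91 control replicate 2) and of Ntrk2, Meg3, Kcnk1 and Ackr3 were lost without at least 1 array.

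Against day 1 the difference was 6.08 for Cyp2c65, 4.18 for Nebl, 3.44 for Rian, 3.21 for Meg3, 3.19 for Gm10419, 2.68 for Moxd1, 2.67 for Cyp2b13, 2.62 for Kcnk1, 2.29 for Ackr3, 2.11 for Ppargc1a, 2.07 for Cyp2d12, 1.94 for Serpinb1a, 1.60 for Tmeff2, 1.59 for Abcc4, 1.48 for Cdh1 and 0.75 for Lpl. It was -2.60 for Pbk, -2.24 for Obp2a, -2.13 for Cyp2c39, -2.05 for Alas1, -1.83 for Tcf19, -1.80 for Spc25, -1.44 for Cyp2c38, -1.21 for Olig1 and -1.09 for Gstt3. The Cyp2b13 call was lost without day 1 control replicate 2.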

How the results depend on the processing

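At day 91 the lower calls numbered 1222 after quantile normalization, 1076 with arrays centred, 1245 with the filter at the 75th percentile and 3040 with array weights, and the higher calls 966 with no filter and 1017 with array weights. Leaving out 1 array at a time gave 378 to 694 higher calls (378 without control replicate 5) and 1370 to 2354 lower calls, with 47 to 56 rises and 15 to 23 falls of at least 2-fold. Effects beyond and short of day 28 by at least 2-fold numbered 37 and 16 with the mean of all probe sets. With array weights they numbered 107 and 40, among 1908 higher and 2909 lower calls. Leaving out arrays gave 739 to 1463 higher and 981 to 2166 lower calls, and 52 to 91 and 20 to 34 at least 2-fold. Without day 28 control replicate 4 there were 755 and 981, and without day 91 control replicate 5 there were 739 higher. Against day 1 the mean of all probe sets gave 83 lower by at least 2-fold, and leaving out arrays gave 1093 to 1576 higher, 2061 to 2752 lower, and 91 to 148 and 82 to 148 at least 2-fold (82 without day 1 control replicate 4).

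Directions of genes that were not called could turn. Without single arrays Alas1 ranged from -0.11 (without control replicate 4) to 0.58. Mki67 was at -0.017 with the spike-in mean as covariate and ranged from -0.00011 (without control replicate 2) to 0.24 without single arrays. Dnmt3a was at -0.071 with the mean of all probe sets, -0.050 with the spike-in covariate, -0.038 with the 3 prime minus 5 prime covariate and from -0.051 to 0.040 without single arrays. Tet2 was at -0.16 with the mean of all probe sets, -0.032 with array weights, -0.0036 with the 3 prime minus 5 prime covariate and -0.064 to 0.063 without single arrays. Tet3 was at 0.046 after quantile normalization, 0.043 with arrays centred, 0.0057 and 0.021 with the covariates and -0.040 to 0.028 without single arrays. With the mean of all probe sets Ctnnb1 was at -0.18 and Lifr at -0.00024, and Afp was at -0.17 with probe sets of single transcripts only. The causes were not tested. Of 154 genes named above that were called at day 91, 137 kept the call without each array in turn. No paired analysis was possible because the replicate numbers are in accession order and pair no arrays.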
